A study of Mus musculus with 2 samples.

Results

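The miR-29 family of the mouse has 4 genes, Mir29a, Mir29b-1, Mir29b-2 and Mir29c, and all 4 had a row among the 1973 miRNA genes counted here. They were chosen by name, through the Ensembl identifier of each row, and not by any measured value. A microRNA (miRNA) is a short RNA cut from a hairpin transcript that lowers the output of messenger RNAs carrying a match to its seed, bases 2 to 8. The miR-29 miRNAs are known for repressing collagens, elastin, fibrillin and other proteins of the extracellular matrix, and loss of miR-29 is known to accompany fibrosis. In several tissues the family is known to be low in the embryo and to rise as the tissue matures.

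The tissue was intestine of healthy E16.5 (embryonic day 16.5) embryos of the mouse strain B6NCrl, pooled over males and females. From it came 2 small RNA libraries, which the labels call biological replicates and list as separate tissue samples under 1 donor entry. The labels name 41 embryos for the pool of replicate 2 and give no number for replicate 1. Both libraries form 1 group, with no treatment, mutant or second stage, so the comparisons are among genes and between the replicates. Collagen and other messenger RNAs were not measured. Own-strand reads in miRNA genes numbered 4261976 in replicate 1 and 5680764 in replicate 2, and levels are such reads scaled to a common library total as CPM, the usual unit for read counts. Markers of the labelled tissue were present: the 10 epithelial miRNA genes checked were all detected in both libraries and held 11.6% ± 1.06 of the counts (SD, n = 2), and the 6 genes of smooth muscle and mesenchyme held 18.2% ± 0.561. Of the latter, Mir143 alone held 17.4% ± 0.454 and the other 5 genes 0.811% ± 0.108. The endothelial Mir126a held 3.22% ± 0.198. Lists for other tissues held 0.160% ± 0.0172 (neural), 0.139% ± 0.0140 (blood), 0.0107% ± 0.00143 (striated muscle) and 0.0721% ± 0.0386 (liver). On the neural list, Mir137 alone held 0.154% ± 0.0171 and the other 7 genes 0.00588% ± 8.02e-05. Of the neural genes 3 of 8, and of the striated muscle genes 2 of 6, had 0 reads in both libraries. The striated muscle genes without a read were Mir133a-1 and Mir133a-2, which encode the same mature miRNA. Reads with several mapping places are outside the gene counts. For genes with identical copies, 0 reads or a low share need not mean absence.

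The 4 genes lie as a pair on each of 2 chromosomes (GENCODE M21, mm10). Mir29a (chr6:31062660-31062747) and Mir29b-1 (chr6:31063023-31063093) lie on the minus strand with 275 bases between their hairpins. Mir29a overlapped no other annotated gene, and Mir29b-1 shared 2 bases with an exon of the long noncoding RNA Gm27019. Mir29b-2 (chr1:195037040-195037120) and Mir29c (chr1:195037547-195037634) lie on the plus strand with 426 bases between them. Both lie wholly within an exon of the noncoding transcript A330023F24Rik on the same strand, and opposite an exon of the protein-coding gene Cd46.

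The mature sequences show what the family shares and where a read can be placed. RefSeq (GRCm38.p6) lists 3 different mature miRNAs on the 3p arm, since Mir29b-1 and Mir29b-2 carry the same one. They are given 5′ to 3′ with the seed in capitals.

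miR-29a-3p: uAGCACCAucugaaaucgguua

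miR-29c-3p: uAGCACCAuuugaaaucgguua

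miR-29b-3p (both loci): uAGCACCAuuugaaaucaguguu

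The seed was the same in all 3, and of 1058 miRNA loci with a mature entry in the table, these 4 were the only ones that carried it. With positions counted from 1 at the 5′ end, miR-29a-3p differed from miR-29c-3p at 1 of 22 positions, C10U. From miR-29c-3p to miR-29b-3p, 3 positions changed (G18A, U21G and A22U), and miR-29b-3p was 1 base longer. The 5p arms, cut from the other side of the hairpin, did differ between the 2 copies of miR-29b.

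miR-29b-1-5p: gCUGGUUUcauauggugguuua

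miR-29b-2-5p: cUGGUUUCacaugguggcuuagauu

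The hairpins of the 2 copies show how little of the mature 3p region tells them apart. The capitals mark the longest stretch that both hold, 25 bases, which contains the 23 bases of miR-29b-3p.

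Mir29b-1 hairpin: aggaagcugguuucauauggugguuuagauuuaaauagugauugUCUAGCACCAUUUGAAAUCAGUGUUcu

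Mir29b-2 hairpin: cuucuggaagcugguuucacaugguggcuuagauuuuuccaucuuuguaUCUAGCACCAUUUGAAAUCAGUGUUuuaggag

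A read of the exact miR-29b-3p sequence therefore matches at least 2 places, these hairpins, and the rest of the genome was not searched. Only a read that reaches beyond the stretch, or comes from the 5p arm or the loop, can be given to 1 copy. No window of 20 bases in the Mir29a hairpin occurred in any other hairpin of the table. In the Mir29c hairpin 3 of 69 such windows occurred elsewhere (in Mir29b-1), in Mir29b-2 6 of 62 (in Mir29b-1), and in Mir29b-1 9 of 52 (in Mir29b-2 and Mir29c). At 22 bases, the length of miR-29c-3p, 1 of 67 windows of Mir29c was shared, and it did not reach the 3′ end of the miRNA. Reads with several mapping places are outside the gene counts, and they numbered 2290968 in replicate 1 and 2796194 in replicate 2 (26.2% and 25.7% of all reads). How many of those were miR-29b was not measured.

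Mir29a and Mir29c, the members with a mature sequence of their own, had nearly equal mean levels, 99.3 and 90.9 CPM. Mir29a had 413 reads in replicate 1 and 578 in replicate 2, or 96.9 and 102 CPM, a mean of 99.3 ± 3.42 CPM (n = 2). In replicate 1 the exact 95% interval (Clopper-Pearson) ran from 87.8 to 106.7 CPM, and that of replicate 2, from 93.6 to 110.4 CPM, overlapped it widely. Mir29c had 353 and 562 reads, or 82.8 and 98.9 CPM, a mean of 90.9 ± 11.4 CPM. Its intervals, 74.4 to 91.9 CPM and then 90.9 to 107.5 CPM, overlapped by a narrow margin, with replicate 2 the higher. The intervals hold the counting error of reads alone. They take reads as independent, although reads copied by PCR from 1 molecule count as several. In whole tissue, fewer cells of a type and less RNA per cell cannot be told apart.

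**Figure D1:**
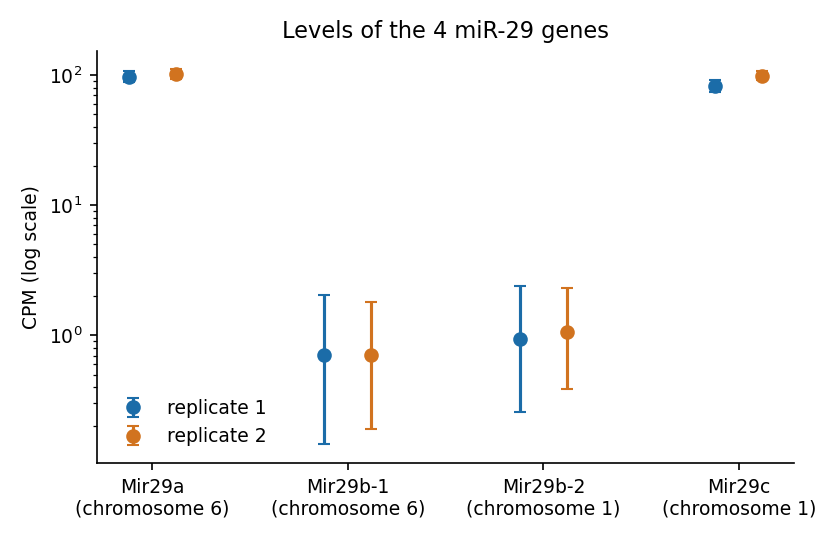
Level of each miR-29 gene in each library, in CPM on a log axis, with exact Clopper-Pearson 95% intervals as bars (counting error only). Mir29a and Mir29c lay between 82.8 and 102 CPM, and both miR-29b genes near 1 CPM.

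Mir29a stood above Mir29c in 2 of 2 libraries, but by little. The ratio of their counts was 1.17 in replicate 1, with an exact interval of 1.01 to 1.35, and 1.03 in replicate 2, with an interval of 0.914 to 1.16. The mean ratio was 1.10 ± 0.1001 (n = 2), so the distance from 1 was about the size of the spread between the replicates. With 2 libraries no permutation test can pass a threshold of 0.05, and none was run. Summed by locus, the chromosome 6 pair held 416 and 582 reads and the chromosome 1 pair 357 and 568, a ratio of 1.09 ± 0.0994, so neither locus stood clearly above the other.

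The miR-29b genes were barely counted. Mir29b-1 had 3 reads in replicate 1 and 4 in replicate 2, which is 0.704 CPM in each library. Mir29b-2 had 4 and 6 reads, 0.939 and 1.06 CPM (mean 0.997 ± 0.0832 CPM). The exact intervals reached from 0.145 to 2.06 CPM for Mir29b-1 in replicate 1 and from 0.388 to 2.30 CPM for Mir29b-2 in replicate 2, so the order of the 2 copies was not resolved at this depth. The 3 counts of Mir29b-1 in replicate 1 equal the limit that a count of 0 allows, 3 counts or 0.704 CPM there and 0.528 CPM in replicate 2. No member had a read on the opposite strand in either library.

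Set against their partners, the copies held about 1 read for every 100 of the unique members. Mir29b-1 and Mir29b-2 together had 7 and 10 reads, against 766 and 1140 for Mir29a and Mir29c together, a ratio of 0.00896 ± 0.000259 (n = 2). The exact intervals were 0.00366 to 0.0189 in replicate 1 and 0.00420 to 0.0162 in replicate 2. Within the chromosome 6 pair the ratio of Mir29b-1 to Mir29a was 0.00709 ± 0.000243, and within the chromosome 1 pair that of Mir29b-2 to Mir29c was 0.0110 ± 0.000463. The exact intervals in replicate 1 were far wider than these SDs, 0.00149 to 0.0214 and 0.00307 to 0.0293. In replicate 2 they were 0.00188 to 0.0178 and 0.00390 to 0.0234. They overlapped widely, so the order of the 2 ratios was not resolved. The gap within each pair was far larger than the spread between the replicates. Lower output of the copies and the loss of reads that mapped to several loci cannot be told apart in these counts, so the ratios are of placed reads and not of miRNA molecules.

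Families built in the same way gave ratios of the same kind. Each of the families miR-26, miR-30 and Mir103 with Mir107 has a pair of loci with an identical mature miRNA beside members with their own sequence, although Mir30b and Mir30d have no mature entry in the RefSeq table and were taken as unique by name. The miR-26 family, known for restraining growth, had 10.7 ± 0.251 CPM at Mir26a-1 and 38.3 ± 4.60 CPM at Mir26a-2, against 32837 ± 2540 CPM at Mir26b. Its ratio of copies to the unique member was 0.00150 ± 0.000249, below that of miR-29. In the miR-30 family the copies Mir30c-1 (62.6 ± 0.305 CPM) and Mir30c-2 (23.4 ± 0.960 CPM) stood at a ratio of 0.00311 ± 0.000112 to Mir30a, Mir30b, Mir30d and Mir30e summed. In the family of Mir103 and Mir107, whose genes lie in pantothenate kinase genes, the copies Mir103-1 (3.43 ± 0.872 CPM) and Mir103-2 (54.8 ± 8.49 CPM) reached a ratio of 0.0533 ± 0.00311 to Mir107, above that of miR-29. The miR-29 ratio thus lay inside the range of these 3 families. The levels of Mir29a and Mir29c were lower by a factor of over 10 than those of Mir26b, Mir30a (6398 ± 323 CPM), Mir30d (4872 ± 483 CPM), Mir30e (16264 ± 1584 CPM) and Mir107 (1090 ± 79.5 CPM). Of the unique genes in these families, Mir30b was the nearest, at 134 ± 22.8 CPM.

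**Figure D2:**
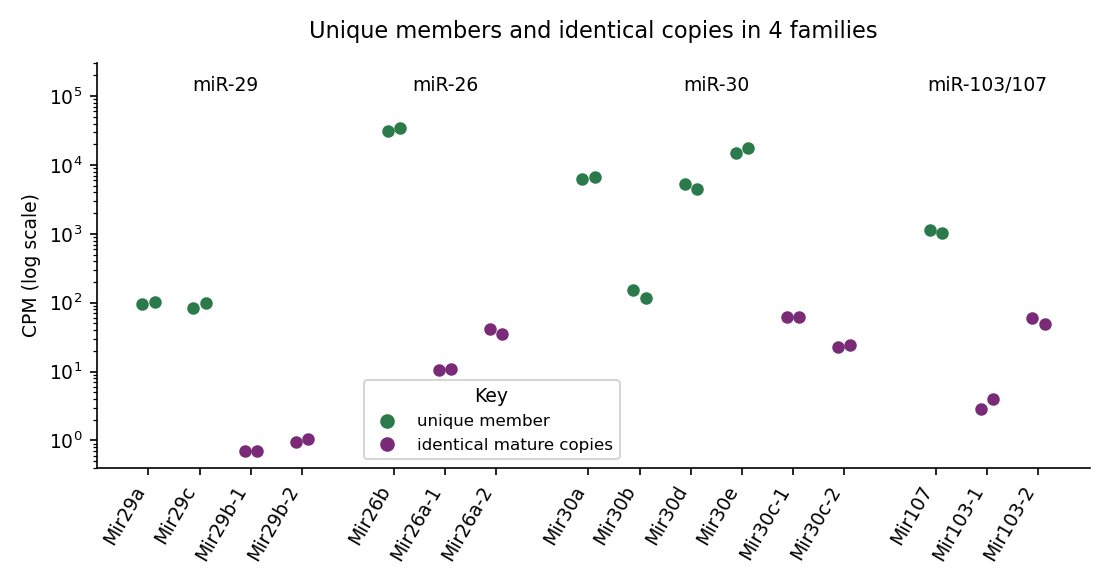
CPM on a log axis of every gene of the miR-29, miR-26 and miR-30 families and of Mir103-1, Mir103-2 and Mir107, with replicate 1 on the left and replicate 2 on the right of each pair of points. In each family the identical copies (purple) lay below the unique members (green), from 62.8 CPM at most down to 0.704 CPM.

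A wider set grouped genes by the number that follows Mir in their name, which leaves out Mir103 with Mir107 and all let-7 genes. It kept groups with both kinds of locus in RefSeq and at least 100 reads on the unique loci of each library. Copies were below unique members in 10 of these 11 groups. In this set miR-30 was counted with Mir30a and Mir30e as its only unique members, which gave 0.00381 ± 0.000265. The median ratio of the 11 was 0.229, and miR-29 had the third lowest (rank 3 from the lowest). Copies of miR-92 were the exception, at 47.6 ± 9.14. Mir92-1 and Mir92-2 share a stretch of 22 bases, against 25 for the miR-29b copies. The miR-196 copies share 22 bases too, at a ratio of 0.0513 ± 0.00318, and the miR-30 copies share 28. A link between this length and the ratio was not tested. The set of 11 groups and its minimum were chosen after the miR-29 values were seen. Over all genes with a mature entry, the 87 with a mature sequence at several loci held 1.87% and 1.90% of the counts in replicates 1 and 2, and the 829 at 1 locus 78.4% and 79.3%. Their medians went the other way, 5.51 CPM against 0.440 CPM, over sets that include the genes without a read (55 of the 87 and 560 of the 829 had one).

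Among all genes, the unique members of miR-29 stood a little below the middle of the genes with enough reads to test. By mean CPM Mir29a ranked 192 and Mir29c 197 of 1973 genes, of which 1257 had no read in either library and 190 reached 100 CPM. Over the 364 genes with at least 20 reads summed over both libraries the median was 129 CPM. In the order of levels Mir29a was preceded by Mir679 (99.8 ± 8.90 CPM) and followed by Mir669c (96.2 ± 3.05 CPM). Mir29c lay between Mir410 (91.5 ± 18.9 CPM) and Mir377 (90.7 ± 19.0 CPM), a pair of miRNAs of the imprinted Dlk1-Dio3 region. Each of these neighbours was apart from its miR-29 gene by less than the larger SD of the pair. Mir29b-2 ranked 422, next to Mir6928 (1.03 ± 0.207 CPM) and Mir7010 (0.997 ± 0.912 CPM). Mir29b-1 ranked 462, where 5 genes, Mir1197 among them, had the same 3 and 4 reads, just below Gm27920 (0.733 ± 0.290 CPM). As a family, the 4 genes held 773 and 1150 reads, 0.0181% and 0.0202% of the counts (mean 0.0192% ± 0.00149). Grouped by the number in the gene name, with the let-7 genes as a group of their own, miR-29 ranked 133 of 853 groups. Of these groups 573 had a read and 155 reached 100 CPM.

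**Figure D3:**
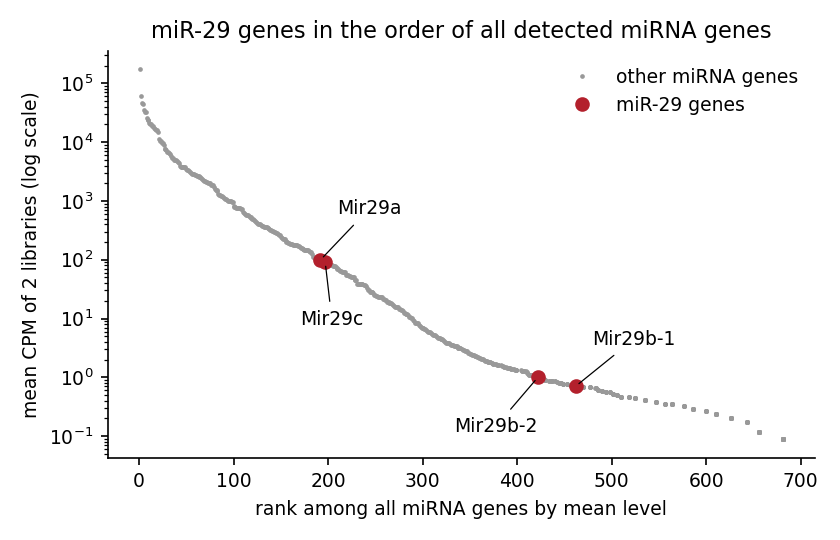
Mean CPM of 2 libraries on a log axis against rank, for every miRNA gene with a read. Mir29a and Mir29c sit at ranks 192 and 197 near 100 CPM, and Mir29b-2 and Mir29b-1 at ranks 422 and 462 near 1 CPM.

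The genes most like each member were those at the smallest distance in log2(CPM + 1) over the 2 libraries, among the 364. For Mir29a these were Mir101a (distance 0.10), Mir338 (0.11) and Mir669c (0.11). For Mir29c they were Mirlet7c-1 (0.16), Mir592 (0.22) and Mir29a itself (0.23). Mir101a stood at 95.3 and 109 CPM, and Mirlet7c-1 at 84.0 and 88.4 CPM. With only 2 libraries, this likeness says little more than that the levels were close.

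Between the replicates, Mir29c differed by more than counting error and Mir29a did not pass. The test was an exact two-sided binomial test of the reads, scaled by TMM (a trimmed mean of the ratios of all genes) and adjusted by Benjamini-Hochberg over the 364 genes. It compares the 2 libraries and not conditions. Mir29c was higher in replicate 2, with a log2 ratio of 0.39, a counting error of 0.10 and an adjusted p of 0.000240 in the exact test. Mir29a had a log2 ratio of 0.20 with a counting error of 0.09, and an adjusted p of 0.0607 in the exact test. The difference between the 2 log2 ratios was 0.19 with a counting error of 0.13, and it was not tested. Of the 2 members that had enough reads, 1 was called, against 51.9% of all genes tested, and 24.5% of all were called as higher in replicate 2, so the call says nothing particular to miR-29. By absolute size, the log2 ratio of Mir29c lay at percentile 74.7 of the genes tested and that of Mir29a at percentile 47.8. The calls also turned on scaling: total counts in place of TMM lowered all log2 ratios by 0.13, which put Mir29a at 0.07 (adjusted p 0.534, exact test) and Mir29c at 0.26 (adjusted p 0.0175, exact test). With DESeq2 size factors Mir29a passed, at 0.22 (adjusted p 0.0396, exact test).

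**Figure D4:**
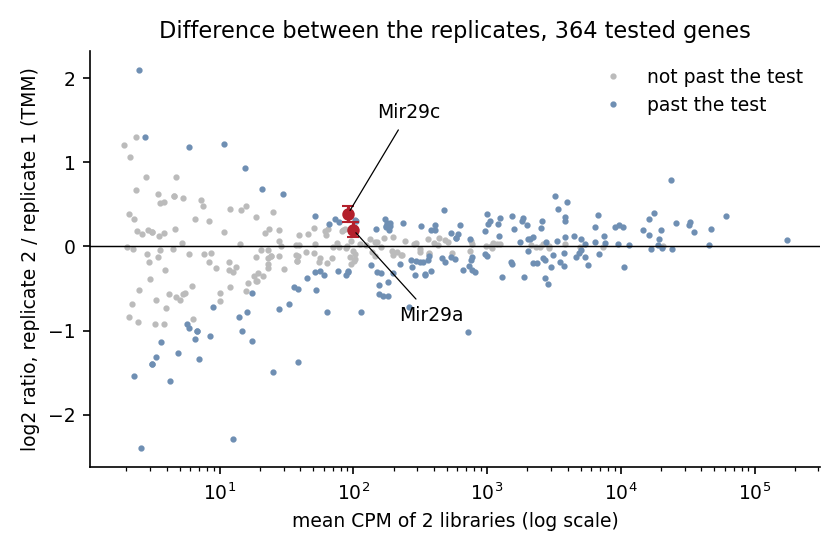
Log2 ratio of replicate 2 to replicate 1 after TMM scaling against mean CPM (log axis), for the 364 genes tested. Mir29c (0.39) and Mir29a (0.20) are shown in red with their counting error, among genes past the test (blue) and not past it (grey).

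Marker shares also differed between the libraries. The epithelial genes held 10.8% of the counts in replicate 1 and 12.3% in replicate 2, and the liver miRNA Mir122 0.0994% and 0.0448%. Endothelial Mir126a held 3.08% and 3.36%, the neural genes 0.148% and 0.172%, the striated muscle genes 0.00967% and 0.0117%, and the blood genes 0.149% and 0.129%. The smooth muscle and mesenchyme genes held 18.6% and 17.8%, with Mir143 alone at 17.7% and 17.1% of all counts. The direction of Mir143 turned with the scaling, with a log2 ratio of 0.08 after TMM and -0.05 with total counts. The part of these markers in the difference of Mir29c was not tested.

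Other miRNAs tied to fibrosis and matrix ranged from undetected to very abundant. All 17 of the list had a row, 15 were detected in both libraries, and 10 stood above Mir29a. The list held 4.53% ± 0.243 of the counts, with a median of 178 CPM. Mir21a, which promotes fibrosis, was the highest, at 17628 ± 2335 CPM. Mir200b, an epithelial miRNA that opposes the epithelial to mesenchymal transition, followed at 10296 ± 518 CPM. Mir214, transcribed with Mir199a-2 in mesenchyme, stood at 4586 ± 561 CPM, and Mir199a-2 at 82.7 ± 2.09 CPM, close to Mir29c. Mir133a-1 and Mir133a-2, muscle miRNAs that also repress collagen, had 0 reads in both libraries, which allows up to 0.704 CPM of placed reads in replicate 1. Both encode the same mature miRNA, so reads that match both loci are outside this limit. Some members, Mir199a-1, Mir199a-2, Mir30c-1 and Mir30c-2 among them, have an identical mature copy at another locus, as the miR-29b genes do. Mir200b, Mir192 and Mir200a also stand on the epithelial list. In the test between the replicates 15 of the list had enough reads, of which 7 passed as higher in replicate 2, 3 passed as higher in replicate 1, and the other 5 missed the threshold. Over all 364 genes tested, 24.5% were called as higher in replicate 2 and 51.9% in either direction, and the split of 89 higher in replicate 2 and 100 higher in replicate 1 became 46 and 164 with total counts. The 15 tested genes of the list had a median log2 ratio of 0.18, against -0.02 over all genes tested, both after TMM. Total counts lower both medians alike. The list was not matched to the other genes by level, and the exact test calls smaller differences at higher counts.

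The name of the family as repressors of collagen was set against sequence, since no messenger RNA was measured. The match to the seed reads TGGTGCT on the messenger RNA, and TGGTGCTA where an A follows, a form of site known to be more effective. Both were searched on the transcript strand in the 3′ UTR of 1 GENCODE M21 transcript for each gene, the one with the longest 3′ UTR, and an 8-base match is also counted as a 7-base match. Of 27 matrix genes on the list, 23 held at least 1 match of 7 bases (85.2%), against 13.0% of 20979 protein-coding genes, and 17 held one of 8 bases (63.0%), against 2.85%. At least 2 matches of 7 bases stood in 12 of the 27 (44.4%), against 2.02% of all genes. Lengths differed, with a median of 1188 bases for the list and 954 for all. Per 1000 bases, the list held 1.01 matches of 7 bases and all genes 0.106. Within the first 1000 bases of 3′ UTRs at least that long, 10 of 16 matrix genes held a 7-base match (62.5%), against 10.1% of 10170 genes. The list, drawn up with the biology of the family in mind, names genes known as collagen and matrix targets of miR-29, so these shares are a description and no independent evidence. A match is not a shown site of repression.

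A few of these stretches show the match in its setting, with the bases that pair with the seed (and the A after them) in capitals, as DNA on the transcript strand. They were taken from 3′ UTR exons of a fibrillar collagen of bone and skin (Col1a1), a fibrillar collagen of hollow organs (Col3a1), elastin (Eln) and the microfibril protein fibrillin-1 (Fbn1).

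Col1a1, chr11:94952527-94952548, plus strand: gaaggaatttcTGGTGCTAtag

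Col3a1, chr1:45348971-45348992, plus strand: aaatgtctcaaTGGTGCTAtaa

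Eln, chr5:134703733-134703754, minus strand: ctcatcaacgtTGGTGCTActg

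Fbn1, chr2:125301170-125301191, minus strand: tgttgtctgttTGGTGCTAgta

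Counted from the first base after the stop codon, the match began at base 919 in Col1a1, 235 in Col3a1, 38 in this site of Eln and 406 in this site of Fbn1. Col5a1 and Col4a3 had the most matches, 4 each, of which 2 in Col5a1 and none in Col4a3 had 8 bases. Col4a5, a basement membrane collagen, had 3, all of 8 bases. No match stood in the 3′ UTR used for Col1a2, Col6a1, Col12a1 or Sparc, which says only that these letters are not in those sequences.

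**Figure D5:**
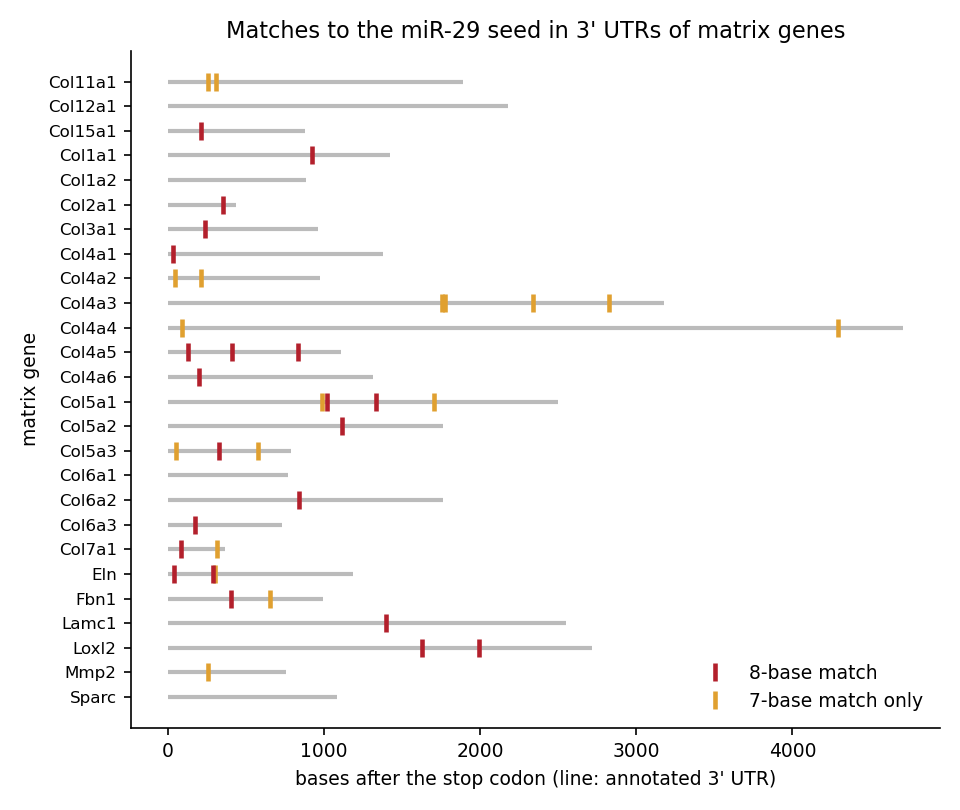
Matches to the miR-29 seed along the 3′ UTR of the matrix genes other than Lox, in bases after the stop codon, with 8-base matches in red and 7-base matches in yellow. Grey lines give the length of the 3′ UTR, and 4 genes (Col12a1, Col1a2, Col6a1 and Sparc) hold no match.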

How the data were processed

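Small RNA (under 30 nucleotides) from E16.5 intestine was sequenced in 2 libraries. The authors deposited raw counts of reads per miRNA gene (mm10, GENCODE M4, according to each library's readme). Aligner, counter and trimming: not given in the sources used here. The counts stand in 3 columns without names, told apart by their values. The one used, taken as the gene's own strand, held 96.2% and 96.3% of the first, taken as unstranded. The 4 leading rows that name no gene stayed out of totals: unmapped reads (19.5% and 17.2% of all), reads with several loci (26.2% and 25.7%), reads in no miRNA gene (3.69% and 2.88%) and ambiguous reads (0).

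CPM are own-strand counts over the sum of all gene rows (4261976 and 5680764). Symbols and coordinates came from GENCODE M21, which held 1894 of 1973 identifiers, and sequences from RefSeq (GRCm38.p6), which held all 4 members. Intervals are exact Clopper-Pearson 95% intervals. With 1 group there is no contrast for a quasi-likelihood test, so the replicates were compared by an exact binomial test with TMM factors from edgeR 4.0.16, a minimum of 20 counts summed, a prior of 0.5 counts in log2 ratios and a threshold of 0.05. The p-values of this test measure only the spread between reads of these libraries. R 4.3.3, DESeq2 1.42.0 (size factors only), Python 3.11.15, scipy 1.17.1, numpy 2.4.6 and pandas 2.3.3 were used.

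The members and lists were chosen with earlier results of these data known. Named genes were the members, the 3 genes at the smallest distance to each unique member, the nearest gene above and below each in the order of levels, the families miR-26, miR-30 and Mir103 with Mir107, and the lists of fibrosis miRNAs and matrix genes. The 11 families with copies were named after their values were seen. The alternatives were unstranded counts, each replicate alone, other totals, other count minimums (1 and 100), other scalings, other priors and pseudocounts, and a 1.5-fold minimum. Of the marker lists, Mir9-1, Mir142 and Mir1a-2 were not analysed here.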

Additional observations from a re-analysis of the deposited data

How the results depend on the processing

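The ratios within miR-29 and within the 3 other families could not be moved by the alternatives run on them: unstranded counts gave the same values, and with 2 replicates each alone lies within 1 SD of the mean. CPM levels moved with the total used, by construction. Without the most abundant gene in the total, Mir29a stood at 120.2 CPM, Mir29c at 110.0, Mir29b-1 at 0.852 and Mir29b-2 at 1.21, and the family share was 0.0232%. With all reads of the library as the total they were 50.2, 46.01, 0.355 and 0.504 CPM and 0.00971%. With unstranded counts Mir29a fell to 95.6 CPM and Mir29b-1 to 0.678 CPM. Leaving out a replicate gave 96.9 to 102 CPM for Mir29a and 82.8 to 98.9 CPM for Mir29c. In the exact test between the replicates, Mir29c was called with a log2 ratio from 0.26 to 0.43 under every scaling and minimum run, but at 0.39 it was under a 1.5-fold minimum, which left 0 members and 40 of the 189 genes. Mir29a was called with DESeq2 size factors (0.22), with at least 1 count (0.24) and with at least 100 counts (0.20), so that 2 members passed in each of these. With at least 1 count, Mir29b-1 (log2 ratio 0.12, adjusted p 1 in the exact test) and Mir29b-2 (0.29, adjusted p 0.965 in the exact test) did not pass. Total counts changed the genes called as higher in replicate 2 and in replicate 1 from 89 and 100 to 46 and 164, and no filter on counts to 105 and 77. At 3 to 6 reads a copy, depth limits any statement on the miR-29b genes. No paired analysis was possible because both libraries belong to 1 group.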
